A study of Mus musculus with 27 samples.

Results

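The 37 laminin and integrin genes of the mouse were followed through 4 cell stages, out of 25209 genes listed for every stage and clone. They were chosen by symbol alone, as all genes named Lama, Lamb or Lamc with a digit, Itga with a digit or one of the letters v, l, m, x, d and e, or Itgb with a digit. This gave 11 laminin chains, 18 integrin alpha genes and 8 integrin beta genes (Itgb1 to Itgb8). The RNA came from 27 mRNA-seq libraries of V6.5 cells, a mouse embryonic stem cell line, either wild type (WT) or carrying a knockout of Zfp512b, the gene of the zinc finger protein ZNF512B. The knockout lines KO4 and KO8 are 1 clone each, and both were compared with the same WT libraries of a stage, so the values of the clones against WT are not independent. According to the paper, a WT line taken through the same editing and selection was impractical to make. Effects of the knockout and of editing and selection therefore cannot be told apart. The paper chose these clones among several because their proliferation had risen least. Naive cells (Day 0, 3 libraries each of WT, KO4 and KO8) were grown on gelatine in 2iLIF medium, which holds LIF and inhibitors of MEK and GSK3. Primed cells (Day 2, 2 libraries each) had been moved to a medium with serum and LIF but without the inhibitors. Neural progenitor cells (NPC, Day 10, 2 libraries each) were made through embryoid bodies with retinoic acid, and cardiomyocytes (CM, Day 7.5, 2 libraries each) through embryoid bodies that were plated on gelatine, with vitamin C. Both differentiated cultures are mixtures, and fewer cells of a type and less RNA per cell cannot be told apart in them.

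Laminins are secreted trimers of an alpha, a beta and a gamma chain, and they form the sheet of the basement membrane to which epithelial, muscle and endothelial cells attach. Integrins are receptors made of an alpha and a beta chain, which hold the cell to laminin, fibronectin, collagen or the surface of another cell and link this contact to the actin skeleton inside. The chains combine by fixed rules: Itgb1 joins many alpha chains, Itgb4 only Itga6, and Itgb2 only the alpha chains of leukocytes. Embryonic stem cells are known to attach to laminin through Itga6 and Itgb1, and embryoid bodies build a basement membrane as they differentiate.

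The deposited tables hold, for each gene, a base mean over the WT libraries and those of 1 clone, and no count per library. A base mean is a mean of whole reads divided by size factors and is written to 10 significant digits, so reads per library were solved for. The size factors were inferred from the base means. A gene was used where exactly 1 combination of whole reads fitted with the replicates of a group close together. That window was 6 standard deviations at a dispersion of 0.01, or 0.1 where nothing fitted. Closeness of replicates was thus partly assumed, and the spread behind the SE and p-values may be understated. Reads were recovered for 17 of the 37 genes in naive cells, 29 in primed cells, 25 in NPC and 22 in CM. The others are the most abundant genes, for which only pooled base means are given, as the authors' mean with no error. Depth was estimated as reads assigned to genes, from the inferred size factors and the summed base means. It was between 34.2 and 39.6 megareads in naive libraries and between 15.1 and 19.4 megareads in the others. Recovered reads are given divided by the size factor of the library (normalized reads), and libraries of a group are numbered by size factor, which does not match the replicate numbers of the labels. Zfp512b itself was at 929 and 977 normalized reads in primed WT, 191 and 219 in KO4 and 184 and 154 in KO8, a log2 change of −2.22 (SE 0.11) in KO4 and −2.49 (SE 0.13) in KO8. In CM it was at 1118 and 1060 in WT, 184 and 209 in KO4 and 155 and 173 in KO8, so transcript was lower in all knockout libraries with recovered reads but not absent. In naive cells and NPC the reads of Zfp512b were not recovered.

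The marker genes of the labelled cell types had reads in the pooled base means. These hold WT and a clone together, so they do not show the level in a clone alone. In pooled base means, which were normalized separately at each stage, 6 naive pluripotency genes summed to 131737 in the naive KO4 table and 27914 in the primed one, 8 cardiomyocyte genes summed to 322 in the NPC KO4 table and 33733 in the CM one, and 8 neural progenitor genes to 881 in the primed KO4 table and 8413 in the NPC one. In CM the clone tables, each on its own scale, parted in the cardiomyocyte genes, at 33733 with KO4 and 51569 with KO8. They also parted in smooth muscle and mesenchyme genes (35847 and 66840) and endothelial genes (11244 and 18606). Pooled sums of the pluripotency, primed epiblast, neural progenitor and neuron genes were instead lower with KO8. Per library the clones parted in other cell types too, while none of the genes summed here was at 0 in every library. The neural progenitor gene Pax6 was at 55.0 and 65.0 normalized reads in WT, 2795 and 2787 in KO4 and 93.9 and 90.1 in KO8. The summed level of the 6 blood and megakaryocyte genes with recovered reads, of 8 listed, was 329 and 448 in WT, between 33.9 and 35.8 in KO4 and between 2413 and 2460 in KO8. Of 11 genes of extraembryonic and visceral endoderm, the 6 with recovered reads summed to between 2438 and 3594 in WT, 296 and 468 in KO4 and 3130 and 3212 in KO8. The endoderm regulator Sox17 was at 1084 and 768 in WT, 66.7 and 122 in KO4 and 1031 and 1063 in KO8. The 5 naive pluripotency genes with recovered reads, of 6, summed to 1597 and 1599 in WT, between 2741 and 3832 in KO4 and between 748 and 803 in KO8. The 2 CM WT libraries also differed in visceral endoderm genes, with Apoa1 at 586 and 136 and Cubn at 189 and 53.2. For less abundant genes, squared differences between the 2 NPC libraries of KO8 were a median of 4.01 times those of read-counting noise. The values were 2.32 for WT and 2.15 for KO4. For more abundant genes they were 6.68 in KO8, 3.31 in WT and 2.53 in KO4. CM WT, which both CM comparisons share, was at 2.88 and 4.51 in these 2 ranges. How calls that rest on the NPC libraries of KO8 change without each is given.

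Which chains the cells make was read from the pooled level, the base mean per kb of exon, scaled to the same total of base means in every table and averaged over the 2 clone tables of a stage. Lamc1, the gamma chain shared by most laminin trimers, was the most abundant laminin gene at every stage, with 107 in naive cells, 72.8 in primed cells, 31.9 in NPC and 53.3 in CM. Behind it stood Lama5 at 21.3 and Lamb2 at 14.1 in naive cells, and Lama5 at 24.6 and Lamb1 at 16.9 in primed cells. In NPC the next were Lamb2 at 30.4 and Lamb1 at 20.7, and in CM Lamb1 at 40.5 and Lama5 at 27.3. In NPC the pooled levels of Lamc1 and Lamb2 lay close together, within 31.4 to 32.4 and 29.8 to 31.1 over the clone tables, and pooled values carry no error that would set them apart.

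Among the receptors, Itgb1, the common partner of the alpha chains, had the highest pooled level at every stage, at 58.3 in naive cells, 71.8 in primed cells, 159 in NPC and 242 in CM. Itgb5, which pairs with Itgav to bind vitronectin, followed at 28.6 in naive cells and 30.1 in NPC. In primed cells Itga6, the laminin receptor chain, stood second at 24.4 and Itgb5 followed at 23.8. In CM Itga5, the fibronectin receptor chain, was at 48.0 and Itgb5 at 46.8, and their order turned between the clone tables, with 45.2 and 38.0 in the KO4 table and 50.9 and 55.5 in the KO8 table. At the other end, the leukocyte alpha chains Itgad and Itgax and the beta chain Itgb8 were at 0 in all 9 naive libraries, and Itgax and the epithelial chain Itgb6 in all primed libraries. Other leukocyte chains stood well above 0, with Itgb7 at 6.00 and 12.5 and Itgal at 2.31 and 1.77 in naive and primed cells.

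**Figure D1:**
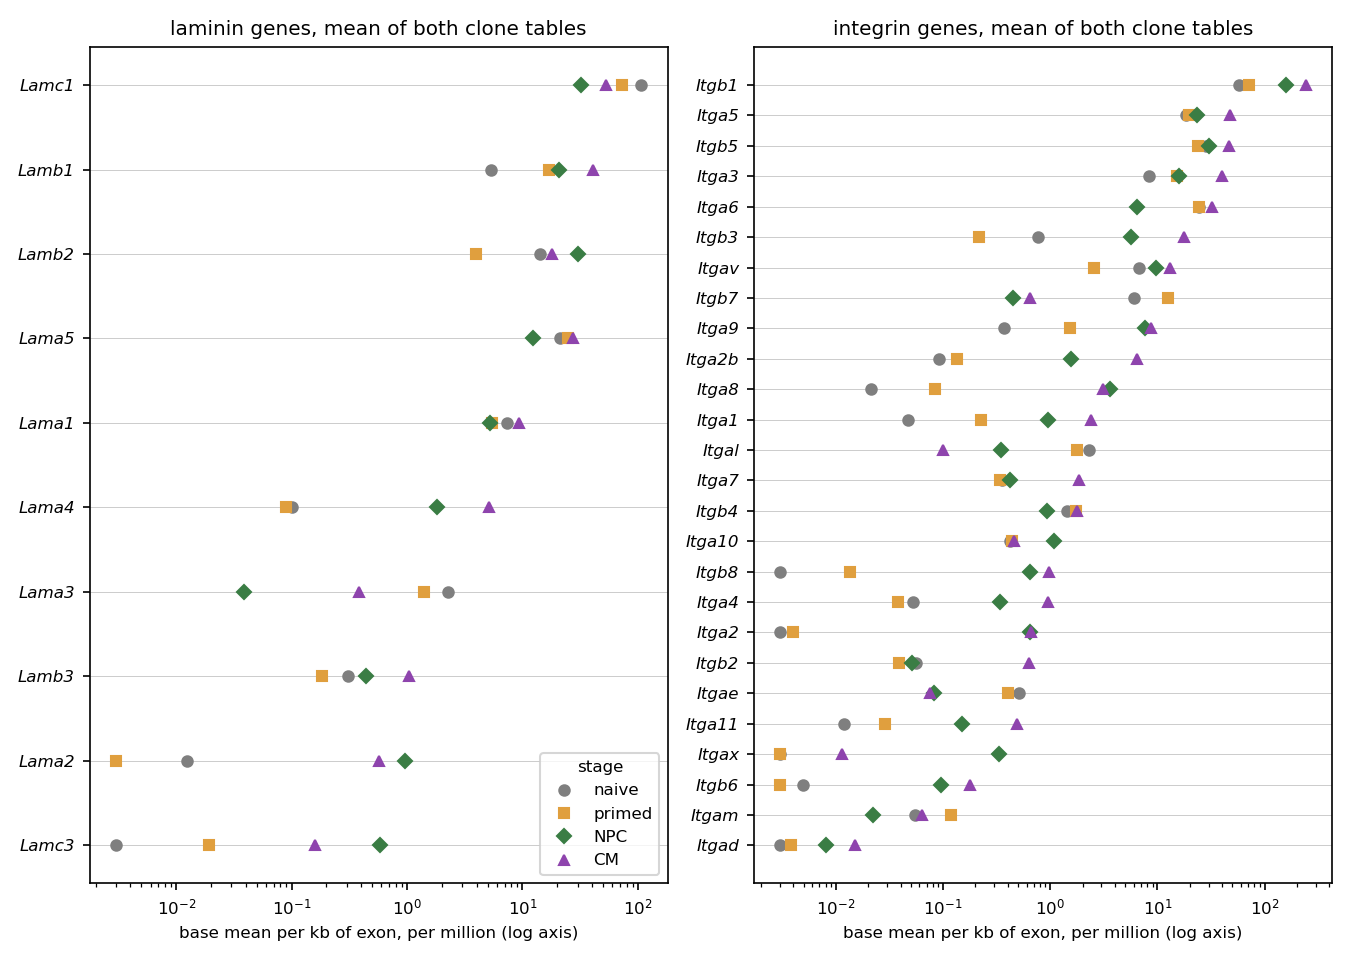
Pooled level of the reported laminin genes (left) and integrin genes (right) at the 4 stages, as base mean per kb of exon with base means scaled to the same total in every table, mean of the KO4 and KO8 tables, on a log axis. Values under 0.003, zeros included, are drawn at 0.003. Lamc1 and Itgb1 lead their families at every stage, and most rarely read genes, such as Itgb8 and Itga2, stand higher in NPC and CM than in naive and primed cells.

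The WT libraries alone show how the genes move as the cells differentiate. For this, the stages were put on one scale by the median of ratios of base means. A gene was called higher or lower at an adjusted p under 0.05, in limma-voom with Benjamini-Hochberg adjustment over all genes tested, which are those with recovered reads and a mean of at least 10. From primed cells to NPC, 16 of the 20 laminin and integrin genes tested were called, 11 higher and 5 lower, where 74.9% of all genes tested were called, 41.5% higher and 33.4% lower. Their median log2 change was 1.80, against 0.23 over all genes tested. From primed cells to CM, 18 of 20 were called, 14 higher and 4 lower, where 71.5% of all genes were, 38.2% higher and 33.4% lower. The median was 3.47 there, against 0.12. The mean of at least 10 was taken over primed, NPC and CM libraries together, and 8 of the 20 members averaged under 10 in primed WT (Itga2, Itga11, Itgax, Itgb2, Itgb6, Itgb8, Lama2 and Lamc3). These entered through the later stages alone, and 6 of the 11 higher in NPC and 7 of the 14 higher in CM were among them, so no direction is read from these counts and medians. Stage and preparation cannot be told apart in these comparisons, and genes above about 700 reads at any stage are left out of them.

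The receptors that rose include collagen and platelet chains. Itga1, a collagen receptor chain, had 7.84, 9.28 and 8.32 stage-scaled reads in naive WT, 37.4 and 39.3 in primed WT, 169 and 144 in NPC and 615 and 487 in CM. The groups did not overlap, and the rise over primed cells was 2.01 (SE 0.36) on the log2 scale in NPC and 3.81 (SE 0.33) in CM, with adjusted p = 0.000209 and 5.49e-07. Itga2b, the platelet fibrinogen receptor chain, had between 7.28 and 15.3 in primed WT, 200 and 192 in NPC and 762 and 577 in CM, a log2 change of 4.11 (SE 0.64) in NPC and 5.87 (SE 0.62) in CM (adjusted p = 6.14e-05 and 2.57e-06). Itga8, the receptor chain for nephronectin, had 15.3 and 17.5 in primed WT, 606 and 585 in NPC and 618 and 385 in CM. Itgb8, which with Itgav releases latent TGF-beta, had 0 and 5.82 in primed WT, 104 and 112 in NPC and 266 and 226 in CM. Itga2 and Itgb6 had no read in either primed WT library.

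Other members fell on the way. Itgb7, a beta chain of lymphocyte homing receptors, had 927 and 980 stage-scaled reads in primed WT, 20.9 and 33.5 in NPC and 38.9 and 37.7 in CM, and its log2 change was −5.15 (SE 0.30) in NPC and −4.62 (SE 0.26) in CM (adjusted p = 4.12e-08 and 3.03e-08). Itgal, the alpha chain of LFA-1, had 315 and 288 in primed WT, 49.2 and 45.0 in NPC and 6.48 and 11.4 in CM. Lama3, the alpha chain of the laminin of hemidesmosomes, had 534 and 438 in primed WT, only 13.6 and 9.23 in NPC and 161 and 120 in CM. Itgb4 went opposite ways, from 330 and 294 in primed WT down to 112 and 143 in NPC (log2 −1.30, SE 0.20) and up to 478 and 403 in CM (log2 0.49, SE 0.15). Its rise in CM was lost without primed WT library 2 or CM WT library 1 (adjusted p at most 0.092). The rises of Itga10 and Itga4 in NPC were lost without primed WT library 1, NPC WT library 2, and, for Itga10, primed WT library 2 or, for Itga4, NPC WT library 1 (adjusted p at most 0.0932 and 0.0896).

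Between naive and primed WT, 4 of 13 genes tested were called, all higher (Itga1, Itga8, Itgb8 and Lamc3), where 44.4% of all genes tested were called. Reads are recovered in naive cells only for genes that are low there, which favors rises, so no direction is read from this count. With another scaling, by summed reads, the median of all genes shifted by −1.19 on the log2 scale and 2 of the genes were called. Without 1 library the count was 1 or 2, and it was lowest without primed WT library 2.

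In naive cells 7 of the 37 genes could be tested. Of these Lamb3, the beta chain of an epithelial laminin, was higher in both clones. It had 29.1, 25.0 and 42.9 normalized reads in WT, 66.4, 51.8 and 44.8 in KO4 and 63.3, 91.3 and 66.2 in KO8. All 6 knockout libraries lay above all 3 WT libraries, by 0.77 (SE 0.26) on the log2 scale in KO4 and 1.20 (SE 0.25) in KO8, with adjusted p = 0.0273 and 0.000524. It was the single member called of 7 tested in KO4, where 18% of all genes were called, and 5.24% of all genes were called higher in both clones. The KO4 call was lost without WT library 1 or 2 or KO4 library 1 or 2 (adjusted p at most 0.177). In KO8 3 of 7 were called, where 16.7% of all genes were.

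The other 2 calls in naive KO8 were of genes not called in KO4. Lama4, a laminin chain of vessel walls, had 23.7, 33.0 and 30.3 normalized reads in WT, 39.1, 35.6 and 44.8 in KO4 and 82.1, 54.6 and 90.3 in KO8. Here KO8 lay above both other groups, 1.36 (SE 0.26) above WT on the log2 scale (adjusted p = 0.000204), and the difference of KO4 from KO8 was −0.89 (SE 0.23, adjusted p = 0.017). That difference was the single call of 7 between the naive clones, where 4.06% of all genes were called, and it was lost without KO4 library 1 or 2 or KO8 library 1 or 3 (adjusted p at most 0.105). Itga4, a chain of the receptor for fibronectin and VCAM1, had 30.9, 39.0 and 32.4 in WT, 22.5, 18.3 and 26.1 in KO4 and 6.93, 8.93 and 31.5 in KO8. Its log2 change in KO8 was −1.43 (SE 0.39, adjusted p = 0.00832), and the call was lost without KO8 library 1 or 2 (adjusted p at most 0.0784). All 20 genes with pooled values only differed between the clone tables by at most 1.44-fold, the size for Itga9, a tenascin receptor chain that was higher in the KO4 table.

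In primed cells Lama3, a laminin chain of epithelia, and Itgb7 were lower in both clones. Lama3 had 366 and 300 normalized reads in WT, 203 and 133 in KO4 and 160 and 204 in KO8. The knockout libraries all lay below WT, by a log2 change of −1.01 (SE 0.15) in KO4 and −0.88 (SE 0.14) in KO8 (adjusted p = 6.38e-06 and 1.55e-07). Itgb7 had 636 and 672 in WT, 501 and 538 in KO4 and 560 and 514 in KO8. Its changes were smaller, −0.33 (SE 0.09) and −0.28 (SE 0.09) on the log2 scale with adjusted p = 0.00578 and 0.015, and each call was lost without WT library 2 and without 1 knockout library, KO4 library 1 or KO8 library 2 (adjusted p at most 0.0776 and 0.197). Lamb3 was near the detection limit, with 11.4 and 15.0 in WT, 14.3 and 4.10 in KO4 and 31.2 and 9.14 in KO8, and was not called.

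Over all primed genes tested, 4 of 18 members were called in KO4, all lower, and 5 of 19 in KO8, 4 lower and 1 higher. The shares of all genes called were 18.8% (11.1% lower) and 15.7%, and 5.44% were called lower in both clones. Lama1, the alpha chain of the laminin of the early embryo, was called in KO4 alone, from 922 and 937 to 793 and 836 normalized reads, a log2 change of −0.19 (SE 0.07, adjusted p = 0.0497). That call was lost in 7 of 8 alternatives, without each of the 4 libraries in turn among them (adjusted p at most 0.266). In KO8 Itga9 was lower (229 and 230 in WT, 182 and 144 in KO8) and Lamb2 higher (359 and 354 in WT, 459 and 441 in KO8). The 2 calls were lost without WT library 1 or 2, and Itga9 also without KO8 library 2 and Lamb2 without KO8 library 1 (adjusted p at most 0.271 and 0.15). No member differed between the primed clones in limma-voom at an adjusted p under 0.05, of 19 tested, where 2.73% of all genes did; 4 had an unadjusted p under 0.05 and limma-trend called 0. The 8 genes with pooled values only differed between the clone tables by at most 1.11-fold.

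In NPC of KO4, 13 of 19 members tested were not called, and 1 was higher and 5 were lower, where 17.8% of all genes were called and 8.05% lower. Markers of other cell types moved too. The 5 of 8 neural progenitor genes with recovered reads summed to between 438 and 558 in WT and 1298 and 1587 in KO4, with all 5 called higher, and to between 1158 and 2731 in KO8. The 4 of 8 smooth muscle and mesenchyme genes with recovered reads summed to between 1221 and 1570 in WT, 375 and 422 in KO4, where 2 of 4 were called lower, and 830 and 1130 in KO8. None of these genes was at 0 in every library, and their part in the results was not tested. Itga8 had 548 and 529 normalized reads in WT, 207 and 249 in KO4 and 566 and 359 in KO8. The KO4 libraries lay below all others, with a log2 change of −1.25 (SE 0.14, adjusted p = 5.79e-08), which was kept in every alternative. Itgb3, the beta chain of the platelet fibrinogen and vitronectin receptors, had 568 and 571 in WT, 390 and 404 in KO4 and 761 and 647 in KO8. Its partner Itga2b had 181 and 173 in WT, 112 and 79.3 in KO4 and 134 and 111 in KO8. The log2 changes in KO4 were −0.52 (SE 0.11) for Itgb3 and −0.90 (SE 0.21) for Itga2b, with adjusted p = 0.000935 and 0.00235, and the call of Itga2b was lost without KO4 library 2 (adjusted p at most 0.121).

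Lamb3 fell in NPC of KO4, where it averaged under 10 and so passed the filter through WT. It had 33.1 and 42.8 normalized reads in WT, 9.65 and 6.26 in KO4 and 41.4 and 49.0 in KO8. The KO4 libraries were the lowest, by a log2 change of −2.19 (SE 0.53, adjusted p = 0.00302), and without KO4 library 2 it reached adjusted p = 0.0549. Itga4 was the member that rose, from 63.4 and 54.2 in WT to 104 and 124 in KO4, with 112 and 67.2 in KO8. Its log2 change in KO4 was 0.94 (SE 0.25, adjusted p = 0.00792), and the call was lost without KO4 library 2 (adjusted p at most 0.154). In 1 fit over the 3 NPC groups, Itga8 and Lamb3 were the 2 members still called in KO4.

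In NPC of KO8 none of 20 members passed limma-voom at an adjusted p under 0.05, where 1.55% of all genes did; 5 had an unadjusted p under 0.05 and limma-trend called 1. That one was Lama4, with 477 and 375 normalized reads in WT, 436 and 370 in KO4 and 205 and 200 in KO8. Both KO8 libraries lay below all others. Its log2 change was −1.07, with adjusted p = 0.0513. With KO8 library 1 left out 5 members were called, and with library 2 left out 4, and Lama2 and Lama4 were lower in both cases. Calls over all genes rose as well in these fits, as given at the end, so no share is read from them. Between the clones 1 of 20 members was called, where 0.669% of all genes were. This was Itgb3, −0.83 (SE 0.12) on the log2 scale in KO4 against KO8 (adjusted p = 0.0312). Its call was lost without either WT or either KO4 library, as were those of all other genes, so the loss is not particular to Itgb3. Leaving out KO8 library 1 or 2 raised the calls among members and over all genes alike. Those fits keep 1 KO8 library, and no count is read from them.

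**Figure D2:**
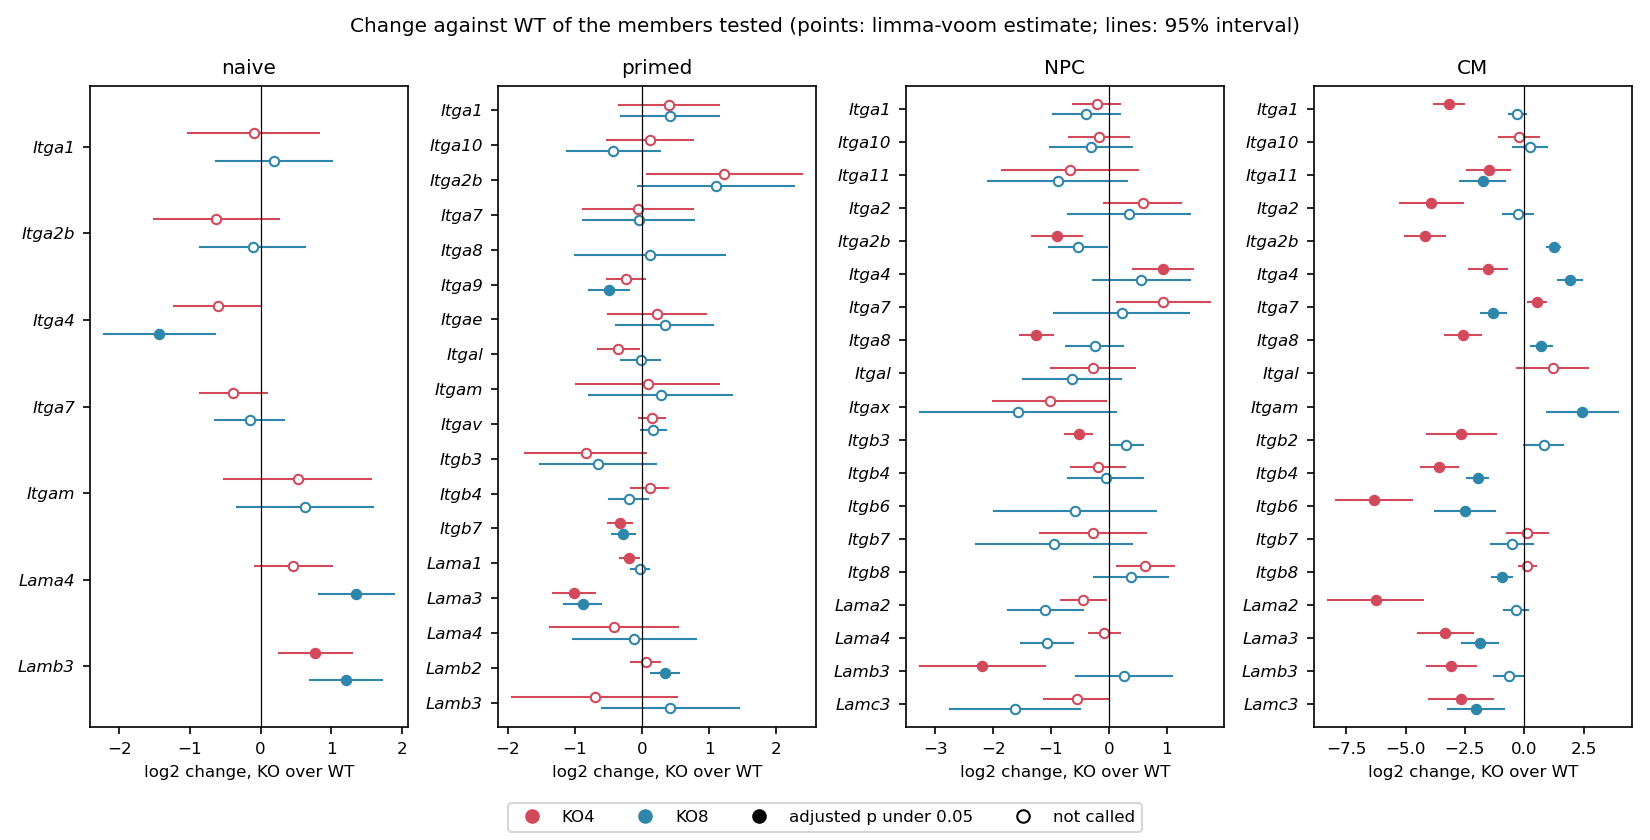
Log2 change of KO4 (red) and KO8 (blue) against WT for the laminin and integrin genes tested and reported at each stage, with 95% intervals from limma-voom. The scale of the horizontal axis differs between panels. Filled points have an adjusted p under 0.05. In CM filled points mark 13 genes as lower in KO4, and Itga2b, Itga4, Itga8 and Itgam as higher in KO8. The fitted values of Itgb6 and Lama2 in KO4 rest on libraries with 0 reads.

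In CM most of the genes that could be tested were lower in KO4. Of 18 tested, 14 were called in KO4, 13 lower and 1 higher, where 51.8% of all genes were called, 27.9% lower and 23.9% higher. The median log2 change was −2.66 over the members and −0.03 over all genes tested, and it stayed at −2.66 with Itgb6, which had no read in KO4, set to the bound given below. Of 4 laminin chains tested, all 4 were lower. In KO8 11 of 18 were called, 7 lower and 4 higher, where 23.3% of all genes were, 11.9% lower and 11.4% higher, with a median of −0.44 against −0.01. Of the genes lower in KO4, 5 (Itga2, Itgb2, Itgb6, Lama2 and Lamc3) averaged under 10 in KO4 and so passed the filter through WT, as did Itgb6 and Lamc3 in KO8, so these counts and medians lean toward falls. The markers of other cell types given above moved in KO4 as well. Of the endoderm genes tested 4 of 6 were lower and none higher, of the naive pluripotency genes 3 of 5 were higher and 1 lower, and of the neural progenitor genes 5 of 6 were higher and 1 lower. Their part in the fall of the members was not tested.

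Of 17 members tested in both clones, 5 were lower in both, where 7.73% of all genes were. Itgb4, the partner of Itga6 in hemidesmosomes, had 413 and 348 normalized reads in WT, 44.1 and 22.1 in KO4 and 94.8 and 98.3 in KO8. The 3 groups did not overlap, and the log2 change was −3.58 (SE 0.35) in KO4 and −1.97 (SE 0.19) in KO8 (adjusted p = 1.47e-05 and 8.11e-05). Lama3, its laminin ligand chain, had 139 and 103 in WT, 20.5 and 6.31 in KO4 and 24.4 and 45.1 in KO8, a log2 change of −3.33 (SE 0.53) and −1.86 (SE 0.35), with adjusted p = 0.000388 and 0.00329. Itgb6, an epithelial chain that with Itgav releases latent TGF-beta, had 31.7 and 53.2 in WT, 0 and 0 in KO4 and 7.51 and 6.14 in KO8. It was at least 13.6-fold lower in KO4, taking 3 reads per library, which are 3.12 normalized reads, as the floor (adjusted p = 4.38e-05), and changed by −2.50 (SE 0.57, adjusted p = 0.00929) on the log2 scale in KO8.

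The remaining 2 genes lower in both clones were less abundant. Lamc3, a gamma chain of nerve and skin basement membranes, had 27.0 and 31.5 normalized reads in WT, 4.10 and 4.21 in KO4 and 5.63 and 8.19 in KO8. Itga11, a collagen receptor chain of mesenchymal cells, had 53.1 and 85.7 in WT, 22.6 and 24.2 in KO4 and 24.4 and 15.4 in KO8. The WT libraries stood above the rest for both genes, with log2 changes of −2.66 (SE 0.60) and −2.03 (SE 0.53) for Lamc3 and −1.50 (SE 0.41) and −1.75 (SE 0.43) for Itga11. The adjusted p were 0.00363, 0.0188, 0.0101 and 0.0138 in the same order. In KO8 the call of Lamc3 was lost without library 1 and that of Itga11 without library 2 (adjusted p at most 0.125 and 0.0653).

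A second set of genes moved in opposite directions in the clones. Itga2b, Itga4 and Itga8 were lower in KO4 and higher in KO8, where 3.75% of all genes were, and Itga7 was higher in KO4 and lower in KO8, where 1.86% were. In mm9, the authors' build, Itga2b lies at chr11:102314611-102331436 on the minus strand, Itga4 at chr2:79095583-79173280 on the plus strand and Itga8 at chr2:12028259-12223547 on the minus strand, all 3 protein coding. Their proximal promoters are shown because these genes moved in opposite directions in the clones. The 250 bases before the RefSeq start sites were read in GRCm38.p6, chr11:102469884-102470133 (minus), chr2:79255176-79255425 (plus) and chr2:12301945-12302194 (minus), and capitals mark GATAA or GGAAGT on either strand.
Itga2b: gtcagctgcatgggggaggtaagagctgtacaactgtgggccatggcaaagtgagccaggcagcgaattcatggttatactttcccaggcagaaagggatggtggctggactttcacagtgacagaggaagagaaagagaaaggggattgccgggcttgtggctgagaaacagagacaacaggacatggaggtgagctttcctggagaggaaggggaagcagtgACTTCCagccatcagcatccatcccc
Itga4: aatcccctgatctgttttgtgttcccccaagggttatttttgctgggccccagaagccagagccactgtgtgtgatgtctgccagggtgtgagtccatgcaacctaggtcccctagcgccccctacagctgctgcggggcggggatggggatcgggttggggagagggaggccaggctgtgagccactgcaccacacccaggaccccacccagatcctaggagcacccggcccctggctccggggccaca
Itga8: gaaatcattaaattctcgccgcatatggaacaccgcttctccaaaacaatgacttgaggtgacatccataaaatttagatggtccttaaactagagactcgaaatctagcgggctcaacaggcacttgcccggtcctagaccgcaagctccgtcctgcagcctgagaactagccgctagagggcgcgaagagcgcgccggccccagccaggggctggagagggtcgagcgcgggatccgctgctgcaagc
GATAA, the core bound by GATA factors, is in none of these 3 windows, and GGAAGT, a core of ETS factors, is in that of Itga2b, read as ACTTCC. Over all 32851 promoters of this length, 22.58% hold GATAA and 19.74% hold GGAAGT. Of the 23 laminin and integrin genes with an entry, 2 hold GATAA and 8 hold GGAAGT in at least 1 window. These are matches of letters and no test of binding.

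Of these 4 genes, Itga2b had the largest difference between the clones. It had 658 and 499 normalized reads in CM WT, 38.0 and 25.2 in KO4 and 1366 and 1322 in KO8. The 3 groups lay far apart, by −4.19 (SE 0.38) for KO4 against WT and 1.23 (SE 0.12) for KO8 against WT on the log2 scale, with adjusted p = 1.01e-05 and 7.09e-05. Itga4 had 211 and 114 in WT, 54.4 and 53.6 in KO4 and 653 and 532 in KO8, changes of −1.53 (SE 0.36, adjusted p = 0.00477) and 1.91 (SE 0.23, adjusted p = 0.000259). Itga8 had 533 and 332 in WT, 63.6 and 77.8 in KO4 and 800 and 594 in KO8, changes of −2.58 (SE 0.34, adjusted p = 0.000117) and 0.71 (SE 0.20, adjusted p = 0.0255). The rise of Itga8 in KO8 was lost without KO8 library 1 and with no filter on low counts (adjusted p at most 0.136). Itga7, the laminin receptor chain of muscle, had 159 and 139 in WT, 215 and 211 in KO4 and 65.7 and 54.3 in KO8. Its rise in KO4 of 0.52 (SE 0.18, adjusted p = 0.0282) was lost without WT library 2 or KO4 library 1 or 2 (adjusted p at most 0.138), and its fall in KO8 of −1.30 (SE 0.24, adjusted p = 0.00301) was kept in every alternative.

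In CM the blood and megakaryocyte genes moved with Itga2b, Itga4 and Itga8. In NPC this did not hold for each of these members, as given below. Gata1 had 147 and 74.9 normalized reads in CM WT, 6.16 and 6.31 in KO4 and 671 and 643 in KO8, and Pf4 had 76.5 and 87.7, 4.10 and 2.10, and 147 and 105. Of the 6 genes of that list with recovered reads, 4 were tested in KO4 and all 4 were lower, and 6 were tested in KO8, of which 3 were higher and none lower. Their part in the result was not tested. Between the CM WT libraries, Itga4 differed as Gata1 did, at 211 and 114 beside 147 and 74.9, but Pf4 did not.

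Several further members fell in KO4 and were not called in KO8, or the reverse. Lama2, the laminin chain of muscle, had 165 and 122 normalized reads in WT, 0 and 6.31 in KO4 and 100 and 123 in KO8. Itga1 had 531 and 421 in WT, 43.1 and 63.1 in KO4 and 453 and 324 in KO8, and its relative Itga2 had 76.5 and 61.1, 3.08 and 5.26, and 49.8 and 65.5. Lamb3 had 143 and 95.6 in WT, 14.4 and 12.6 in KO4 and 62.0 and 90.1 in KO8, and Itgb2, the shared beta chain of leukocytes, had 48.5 and 24.6, 4.10 and 6.31, and 71.4 and 53.3. The KO4 libraries were far below both other groups in all 5 genes, and the log2 changes in KO4 were −3.17 for Itga1, −3.92 for Itga2, −3.08 for Lamb3 and −2.66 for Itgb2, with adjusted p of at most 0.00627. Itgb8 fell in KO8, with 229 and 195 in WT, 235 and 228 in KO4 and 116 and 107 in KO8 (log2 −0.92, SE 0.19, adjusted p = 0.00574). Itgam, a leukocyte alpha chain, had 5.59 and 1.97 in WT, 0 and 2.10 in KO4 and 22.5 and 18.4 in KO8. It reached the mean of 10 through KO8 alone, so the call counted above could only be a rise, and it was lost without WT library 2 (adjusted p at most 0.0657).

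The contrast of the clones themselves called 12 of 18 members in CM, 10 lower and 2 higher in KO4 than in KO8. Over all genes 52.6% were called and 28.4% were lower. Among the 10, Itga2, Itgb2, Itgb6 and Lama2 averaged under 10 in KO4 and passed the filter through other groups. This count therefore leans toward lower values in KO4. The log2 difference was −5.41 (SE 0.36) for Itga2b, −3.44 (SE 0.33) for Itga4, −3.29 (SE 0.36) for Itga8 and −2.88 (SE 0.33) for Itga1. Itgb4, lower in both clones, also differed between them, by −1.60 (SE 0.36, adjusted p = 0.00228), while for Lama3 the difference was −1.46 (SE 0.61, adjusted p = 0.0604). The genes higher in KO4 than in KO8 were Itga7 (1.82, SE 0.22) and Itgb8 (1.05, SE 0.18). Emcn, the endothelial gene with recovered reads, had 572 and 767 normalized reads in WT, 3.08 and 6.31 in KO4 and 230 and 241 in KO8, so it too was lowest in KO4, and its part in these differences was not tested.

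**Figure D3:**
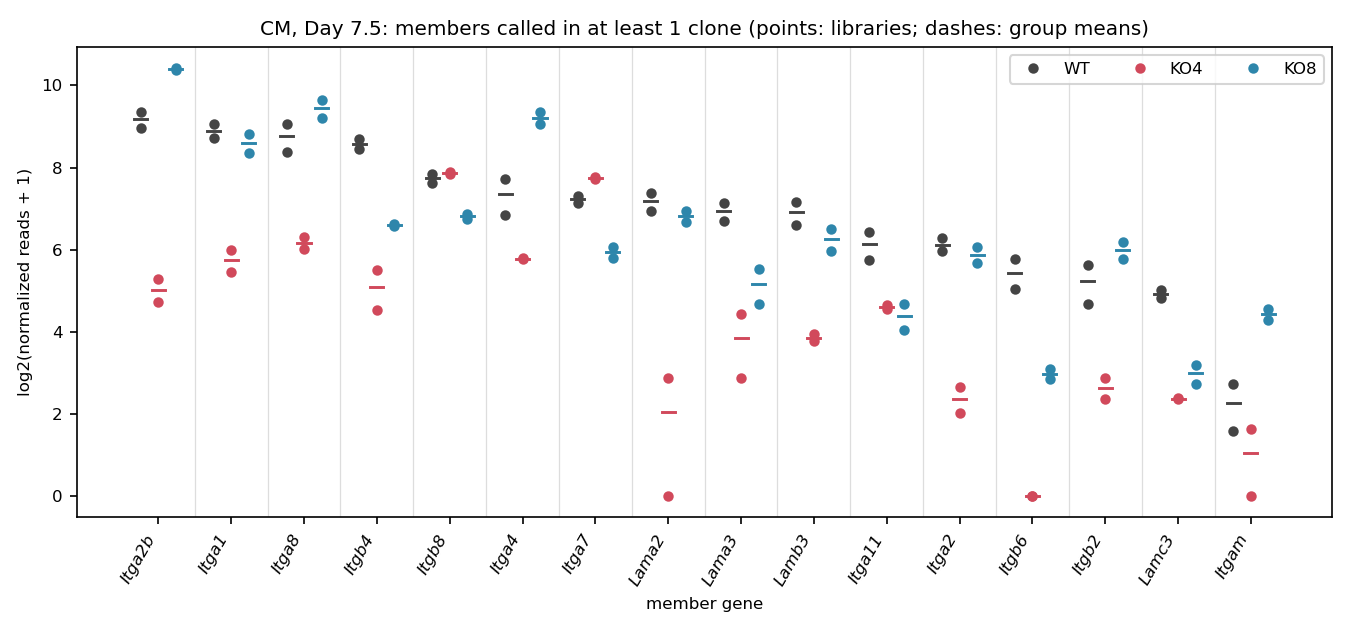
Normalized reads in each CM library, as log2 of the value plus 1, for the 16 laminin and integrin genes called in at least 1 clone. Points are libraries (2 per group) and dashes are the log2 of the group mean plus 1. KO4 lies below WT for 13 of the genes called in it. Of the genes called in KO8, Itga2b, Itga4, Itga8 and Itgam lie above WT.

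For the 15 members with pooled values only, among them the most abundant chains, the KO8 table had the higher base mean in CM in all 15, on the scale of the shared WT libraries. Of the 34 members whose base means reached 10, 29 were higher in the KO8 table and 5 in the KO4 table. The share of all genes higher in the KO8 table by any amount was not counted, so no direction is read from these counts. At least 1.5-fold apart were 10 genes higher in the KO8 table, where 10.1% of all genes were, and 2 higher in the KO4 table, where 7.99% were. Itgb3 had a base mean of 1048 over the WT and KO4 libraries and, on the same scale, 2672 over the WT and KO8 libraries, a ratio of 2.55, which is the least that KO8 can stand above KO4. Even with KO4 at 0, these means leave KO8 at no less than 1.55 times the WT level. Lama4 had 764 and 1492, a ratio of 1.95. The smallest ratio was that of Itga3, a laminin receptor chain, at 1.02, and Itgb1 (16426 and 19263) was at 1.17, Lamc1 at 1.15 and Lama5 at 1.04. The pooled values allow no test, and a ratio near 1 does not show that the clones were alike.

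**Figure D4:**
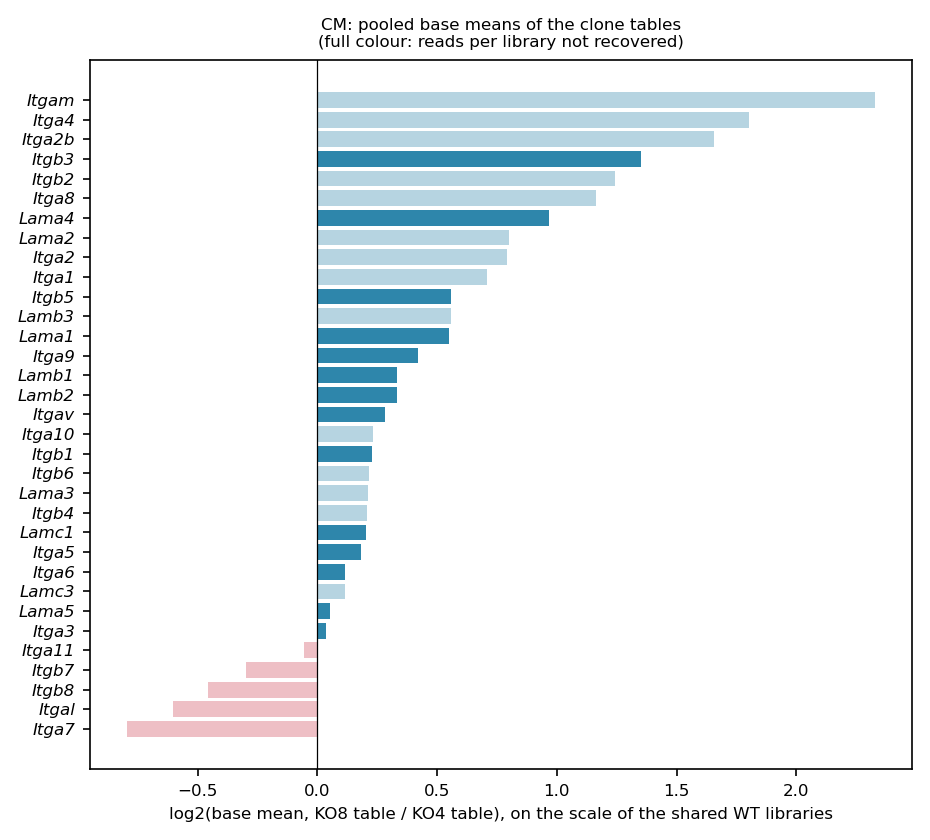
Log2 ratio of the CM base mean in the KO8 table to that in the KO4 table, on the scale of the shared WT libraries, for the 33 reported laminin and integrin genes whose base means reached 10. Full colors mark the 14 genes whose reads per library were not recovered and pale colors the others. Bars to the right (28) are higher with KO8 and bars to the left (5) higher with KO4. Each ratio pools the WT libraries in both tables, so it understates the difference between the clones.

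The change in CM was also compared with the change in NPC, in 1 fit over the 12 libraries of both stages. In KO4 the change differed for 7 of 19 members, all lower in CM, where 28.6% of all genes differed and 16.5% were lower. Itga2, Itgb6 and Lama2 among the 7 averaged under 10 in CM of KO4 and passed the filter through other groups. This count therefore leans toward lower values in CM. In KO8 the change differed for 3 of 19, where 12.3% of all genes did. Itga2b and Itgb4 differed in both clones. For Itga2b the change in CM minus that in NPC was −3.29 (SE 0.46) in KO4 and 1.75 (SE 0.27) in KO8 on the log2 scale, with adjusted p = 0.000228 and 0.00148. Itgb4 had 101 and 129 normalized reads in NPC WT, 112 and 88.7 in KO4 and 94.5 and 129 in KO8, so the NPC groups overlapped. Its difference was −3.39 (SE 0.44) in KO4 and −1.92 (SE 0.34) in KO8 (adjusted p = 0.00012 and 0.00313). The difference of Itgb6 in KO4 was lost without NPC KO4 library 1 or CM KO4 library 1 or 2 (adjusted p at most 0.0853). That of Itgb8 in KO8 was lost in 9 of 15 alternatives, without each NPC WT, CM KO4 and CM KO8 library, NPC KO8 library 2 or CM WT library 1 among them (adjusted p at most 0.144), and without NPC KO8 library 1 or 2 the count for KO8 was 6 or 2.

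A list of 65 other genes of the basement membrane, the matrix and the integrin adhesion complex was counted in the same fits. In CM 16 of them had recovered reads and were tested. In KO4 1 was higher and 11 were lower, beside 51.8% of all genes called and 27.9% lower. In KO8 5 were higher and 4 lower, beside 23.3%. Of those lower in KO4, Col15a1, Vtn, Egfl6 and Lims2 averaged under 10 there and passed the filter through WT. The count in KO4 therefore leans toward falls. Col15a1, a collagen of the basement membrane of muscle and vessels, was the one gene that fell at least 2-fold in both clones. It had 541 and 848 normalized reads in CM WT, 0 and 0 in KO4 and 262 and 248 in KO8. It was at least 223-fold lower in KO4, against the same floor, and changed by −1.40 on the log2 scale in KO8 (adjusted p = 3.07e-05 and 0.00119). Fermt3, the kindlin that activates integrins in blood cells, had 486 and 318 in WT, 35.9 and 35.8 in KO4 and 951 and 886 in KO8, the pattern of Itga2b, and Lims2 and Vtn, the integrin ligand vitronectin, were also lower in KO4 and higher in KO8. Spp1, osteopontin, another integrin ligand, went the other way, with 208 and 229 in WT, 449 and 264 in KO4 and 62.0 and 38.9 in KO8. The KO4 calls of Lims2 and Spp1 were lost without WT library 1 or KO4 library 1, and that of Spp1 also without WT library 2 and with no filter on low counts (adjusted p at most 0.159 and 0.366).

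In primed cells 24 genes of the list were tested, with 3 higher and 2 lower in KO4 and 1 and 1 in KO8, where 18.8% and 15.7% of all genes were called, so these shares lay near or below the background. In NPC 24 were tested, with 3 higher and 5 lower in KO4, where 17.8% of all genes were called. In NPC of KO8 2 were higher and none lower, where 1.55% of all genes were called. Without KO8 library 1 or 2 the calls rose in the list and over all genes alike. Without either WT library all calls were lost, in the list as over all genes. In naive cells 3 were tested, and limma-voom called 0 in either clone; 1 in KO4 and 2 in KO8 had an unadjusted p under 0.05, and limma-trend called 0 and 1.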

How the data were processed

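RNA of WT, KO4 and KO8 V6.5 cells was sequenced at 4 stages in 27 libraries, grouped by the sample titles. Per the submitters' processing notes and methods, the authors trimmed reads with Trim Galore 0.6.7, aligned them to mm9 with HISAT2 2.2, obtained reads per gene from featureCounts, and ran DESeq2 1.46.0 on 1 clone and the WT of the same stage at a time; strand and multi-mapping settings are not given in the sources used here. The 8 deposited tables give a base mean, a normalized signal averaged by the authors over the libraries compared. The other 5 columns of each hold the authors' own comparison (log2 fold change, its error, Wald statistic, p-value and adjusted p-value) and were not used.

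Size factors were read from genes with 1 read. A library belongs to WT where its single reads show in both tables of a stage, and otherwise to the clone of its table. Base means were then solved for whole reads, and a gene was used where 1 solution existed within the replicate window given above. On simulated data every such solution was right. The simulated reads were single rather than paired by mates, and their spread was set in advance and not taken from these libraries. The check therefore does not cover genes whose replicates differ more than the window allows. Nearly all genes under a base mean of 700 were resolved in primed cells, NPC and CM, and in naive cells nearly all under 30. No solution was sought for genes over 1500, and in naive cells this limit was set lower. Values of 2 reads were 1.81 to 2.25 times as frequent as values of 1. Counting of each mate as a read was inferred from this and is not stated in the sources used here. For less abundant genes, squared differences between replicates were 1.82 to 2.62 times those of read-counting noise in naive cells. In primed cells they were 1.93 to 2.04 times. Paired mates alone would give about 2. No source says that replicates are separate cultures, so p-values measure only the spread between these libraries, which may be technical.

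Genes with a mean of at least 10 normalized reads were tested with limma 3.58.1 (voom weights, R 4.3.3), two-sided, with Benjamini-Hochberg adjustment over all genes tested. Decoding and summaries used Python 3.11.15, numpy 2.4.6, pandas 2.3.3 and numba 0.67.0, and plots matplotlib 3.10.9. On simulated data limma-voom called 92.9% of genes changed 2-fold in CM KO4, 79.8% in NPC KO8, 86.5% in primed KO4 and 68.2% in naive KO4. In that simulation all genes of a comparison shared the same dispersion, reads were not paired by mates and few genes were changed. The shares may therefore overstate the power in these libraries, and they do not show that uncalled genes were unchanged. Unlike the planned design, only resolved genes were tested, fits of NPC and CM against primed WT used 6 WT libraries, and the fit of naive against primed used all 9. Levels per kb came from pooled base means and an annotation of mm9. Alternatives were another scaling, no count filter, limma-trend, 1 fit over 3 groups and leaving out each library. Named were genes called in both clones, called in opposite directions, differing between clones by at least 1 (log2) or between NPC and CM in both clones, and the 3 most abundant laminin and integrin genes; other genes singled out were chosen after their values were seen. The members and lists were chosen with earlier results of these data known. Promoters are RefSeq (GRCm38.p6); 23 of 37 members matched. One member is counted but not reported singly here.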

Additional observations from a re-analysis of the deposited data

Results flagged for a closer look

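Differences between the clones were tested directly, and 14 members differed at a stage. In naive cells Lama4 differed by −0.89 (log2, KO4 minus KO8, adjusted p = 0.017), and in NPC Itgb3 by −0.83 (adjusted p = 0.0312). In CM the differences toward lower values in KO4 were −5.89 for Lama2, −5.41 for Itga2b, −3.81 for Itgb6, −3.65 for Itga2, −3.48 for Itgb2, −3.44 for Itga4, −3.29 for Itga8, −2.88 for Itga1, −2.42 for Lamb3 and −1.60 for Itgb4. Itga7 and Itgb8 were higher in KO4 than in KO8, by 1.82 and 1.05. The adjusted p of limma-voom in CM were between 1.57e-07 (Itga2b) and 0.00302 (Itgb6), and the fitted value of Itgb6 depends on the prior count, since both KO4 libraries had 0 reads. Lama2 also had a KO4 library with 0 reads, and Itga2 had few reads in KO4, so the sizes of their differences are uncertain too. In limma-trend the difference of Itgb6 was not called (adjusted p = 0.058).

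The change of a clone against WT also differed between CM and NPC, tested as an interaction. In KO4 the change in CM minus that in NPC was −5.82 for Lama2, −4.51 for Itga2, −4.38 for Itgb6, −3.39 for Itgb4, −3.29 for Itga2b, −2.96 for Itga1 and −2.47 for Itga4 on the log2 scale, with adjusted p of at most 0.013. In KO8 it was 1.75 for Itga2b, −1.92 for Itgb4 and −1.31 for Itgb8, with adjusted p = 0.00148, 0.00313 and 0.0394. The KO4 values of Lama2, Itga2 and Itgb6 carry the limit given above, since these genes averaged under 10 in CM of KO4. The summed blood and megakaryocyte genes, with all 8 resolved in NPC, were between 440 and 462 normalized reads in NPC WT, 67.6 and 104 in KO4 and 733 and 813 in KO8, and with 6 of 8 resolved in CM between 329 and 448, 33.9 and 35.8, and 2413 and 2460. In NPC of KO4, Itga2b and Itga8 were lower too (log2 −0.90 and −1.25), but Itga4 was higher (0.94). In NPC of KO8 the log2 changes were −0.53 for Itga2b, 0.56 for Itga4 and −0.25 for Itga8, and none was called. The part of the blood and megakaryocyte genes in these differences was not tested.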

How the results depend on the processing

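Of 106 calls of members, 76 were kept in every alternative, 30 were lost in at least 1 and 0 reversed direction. No paired analysis was possible because the recovered libraries carry no replicate number of the labels. The planned scaling by total reads per library was not run, since those totals were not recovered; scaling by the summed reads of resolved genes took its place and was chosen after seeing the data. With it, 1 member was called in NPC KO8 against WT (0 in the reported fit), 2 in NPC KO4 against KO8 (1) and 2 in WT primed against naive (4). No count filter gave 1 in NPC KO8. Limma-trend gave 1 in NPC KO8, 5 in NPC KO4 against KO8, 2 in WT primed against naive, and 11 in KO4 and 7 in KO8 for CM minus NPC. A single fit over 3 groups gave 2 in NPC KO4 and 2 in NPC KO8.

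With 1 library left out, calls against WT were 0 to 1 in naive KO4, 2 to 3 in naive KO8, primed KO4 and primed KO8, 3 to 7 in NPC KO4, 0 to 5 in NPC KO8, 13 to 14 in CM KO4 and 8 to 13 in CM KO8. Between clones they were 0 to 1 in naive cells, 0 in primed cells, 0 to 7 in NPC and 12 to 13 in CM. In WT they were 1 to 2 for primed against naive, 13 to 18 for NPC and 16 to 18 for CM against primed, and for CM minus NPC 6 to 9 in KO4 and 2 to 6 in KO8. A group left with 1 library was assumed to vary like the others.

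Over all genes, NPC depended most on the fit: KO8 called 136 genes, but 592 in limma-trend, 630 in the fit over 3 groups, 0 without either WT library and 1939 or 1133 without KO8 library 1 or 2. NPC KO4 called 1532 and 333 in the fit over 3 groups. Without the filter primed KO4 fell from 1639 to 723. Scaling by summed reads moved the share of higher calls from 70.1% to 54.5% in naive KO8, from 27.9% to 46.4% in naive KO4 against KO8 and from 90.0% to 42.0% in WT primed against naive. The median of all genes shifted by −0.11, 0.10 and −1.19 (log2) there. Depth, rounding and the upper limit set for the solving leave the most abundant members without reads per library. The causes of these differences were not tested.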
